A study of Mus musculus with 4 samples.

Results

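The cytosolic ribosomal protein genes were taken as the gene rows named Rpl or Rps plus a number, with an optional final a or x, together with Rplp0, Rplp1, Rplp2 and Rpsa. Pseudogenes and l-type paralogs were left out. The rule gave 76 of 50600 rows, 46 for proteins of the large subunit and 30 for proteins of the small subunit. All 76 averaged 1 or more over the 4 libraries, the limit for testing, and so were among the 11231 genes tested. The rule goes by gene names, but the set itself was chosen with earlier results of these data known.

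The libraries were RNA-seq of OG2ES, a mouse embryonic stem (ES) cell line whose source is given as inner cell mass. There were 2 libraries from Myh9 KO cells and 2 from WT cells. Both groups were grown in mES medium plus 2i, the inhibitor pair that keeps mouse ES cells in the naive state, and had no other treatment. The comparison asks how the transcriptome differs without Myh9, which codes for the heavy chain of a non-muscle myosin. The labels name a single Myh9 KO group, so a feature of that line or clone and an effect of Myh9 loss cannot be told apart in any result below. Nor do they tell whether replicates are separate cultures, so p-values here speak only of library-to-library spread, which may be technical.

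A ribosomal protein is a structural part of the ribosome, whose small subunit reads the mRNA and whose large subunit joins the amino acids. The proteins are made in the cytoplasm, enter the nucleolus and are built onto rRNA in near equal numbers, and their mRNAs carry a 5′ terminal oligopyrimidine (TOP) motif that couples their translation to growth signals. They are among the most abundant mRNAs of dividing cells such as ES cells, and the mouse genome holds many processed pseudogene copies of them.

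The deposited values were whole numbers with nearly equal totals, 992245 and 992317 in the Myh9 KO libraries and 992128 and 992098 in the WT libraries. They are like per-million values without their decimals, and the read depth behind them is unknown. It is not stated whether they are per length, so levels are compared between libraries and not between genes. Myh9 itself had values of 9 and 9 in Myh9 KO and 83 and 100 in WT (log2 fold change -3.20, SE 0.12, limma adjusted p = 0.00675). All 9 ES cell markers passed the filter, with summed values of 8462 and 8323 in Myh9 KO and 9690 and 9924 in WT. By both tests described below, 0 of the 9 were higher and 2 were lower in Myh9 KO, against 5.14% and 5.79% of all tested genes. Of 16 feeder fibroblast markers, 11 were listed at 0 in every library, Col1a1, Col1a2, Col3a1, Pdgfra and Dcn among them, and the list summed to 269 and 300 in Myh9 KO and 305 and 335 in WT. Whether the lower marker sums have a part in the ribosomal values was not tested.

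Most ribosomal protein mRNAs were slightly lower in the Myh9 KO libraries, and a few were higher. By both tests described next, 10 fell, led by Rpl10 and Rpl13a, and 3 rose, namely Rpl32, Rps10 and Rps26. The changes were small: 64 of the 76 had fold changes within 1.2-fold in either direction and 40 of these within 1.1-fold. In bulk RNA, fewer cells of a type and less RNA per cell cannot be told apart.

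Each gene was tested with limma on log2(value + 1), fitted over all 11231 genes, with a Benjamini-Hochberg adjusted p under 0.05 as the threshold (the designed test). Since equal whole numbers leave no spread, the fit was repeated with a random decimal between 0 and 1 added to each value, over 25 draws (the random decimals fit). The words rose and fell are kept for genes that both fits called in that direction. Both fits use the same libraries and are not independent checks. At high values an added decimal hardly moves the log2 fold change (-0.4739 and -0.4738 for Rpl13a). All fold changes are Myh9 KO over WT on the log2(value + 1) scale, with n = 2 libraries per group and SE from the designed test. A call already favours groups that lie apart. For genes called by either fit, groups without overlap are thus a description and no further support.

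Of the 76 genes, 3 (3.95%) rose and 10 (13.2%) fell by both tests, against 5.14% and 5.79% of all tested genes. By itself, the designed test called 3 higher and 11 lower, where it called 7.17% higher and 7.96% lower of all genes, and the random decimals fit called 6 higher and 30 lower (7.89% and 39.5%), where it called 11.1% and 12.1% of all genes. The share of ribosomal protein genes that fell was thus above the background in these 3 counts, by the widest margin with random decimals. The share that rose was below it on counts of only 3, 3 and 6 genes, too few to read a difference from. Here and below, the background includes genes averaging as little as 1, where whole numbers are coarse and added decimals weigh more. Most of the 76 genes had far higher values, and no background of like level was drawn. With every library centred on its median, the designed test called 1 higher and 2 lower of the ribosomal protein genes, and 1164 higher and 819 lower of all genes (10.4% and 7.29%), against 805 and 894 without centring. The lower ones were then 2.63% of the ribosomal protein genes, below the background. Centring moved the median log2 fold change of all tested genes from 0 to 0.0466. That of the 76 genes moved alike, from -0.107 to -0.0607, and so stayed below the median of all tested genes.

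The count also moved with single libraries. Without Myh9 KO 1 the designed test called 1 higher and 5 lower of the 76 genes, against 8.51% higher and 9.17% lower of all genes, and without Myh9 KO 2 it called 0 and 3, against 9.19% and 7.6%. Without WT 1 it called 1 and 2, against 5.33% and 8.36% of all genes, and without WT 2 it called 0 and 1, against 6.2% and 7.09%. The lower ones were thus 1.32% to 6.58% of the 76 genes, below the background in all 4 of these fits. The random decimals fit called 6 higher and 38 lower without Myh9 KO 1, against 11.5% and 13.6% of all genes, and 7 and 27 without Myh9 KO 2, against 8.73% and 10.2%. It called 3 and 11 without WT 1, against 5.77% and 6.09% of all genes, and 2 and 14 without WT 2, against 6.68% and 5.77%. Here the lower ones were at least 14.5% of the 76 genes, above the background in all 4 fits. Of the 13 genes called by both tests, the random decimals fit still called 13 without either Myh9 KO library and 8 without either WT library, the designed test 1 to 3, and all 13 kept their sign in every case.

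Without any threshold, the log2 fold change was below 0 in 55 of the 76 genes and above 0 in 21, against 49.6% and 46.7% of all tested genes. Both Myh9 KO values lay below both WT values in 43 genes (56.6%) and above them in 13 (17.1%), while the groups overlapped in 20. Among all tested genes 27.3% lay wholly below and 26.2% wholly above. The median log2 fold change was -0.11, a fold of 0.928, against 0 for all tested genes. The middle 50% of the genes, as the quartiles give it, ran from -0.22 to 0.01, and the whole range from -0.52 to 0.47. Relative to the WT mean, the median gene stood at -0.07 in Myh9 KO 1 and -0.12 in Myh9 KO 2, and at 0.01 in WT 1 and -0.01 in WT 2.

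**Figure D1:**
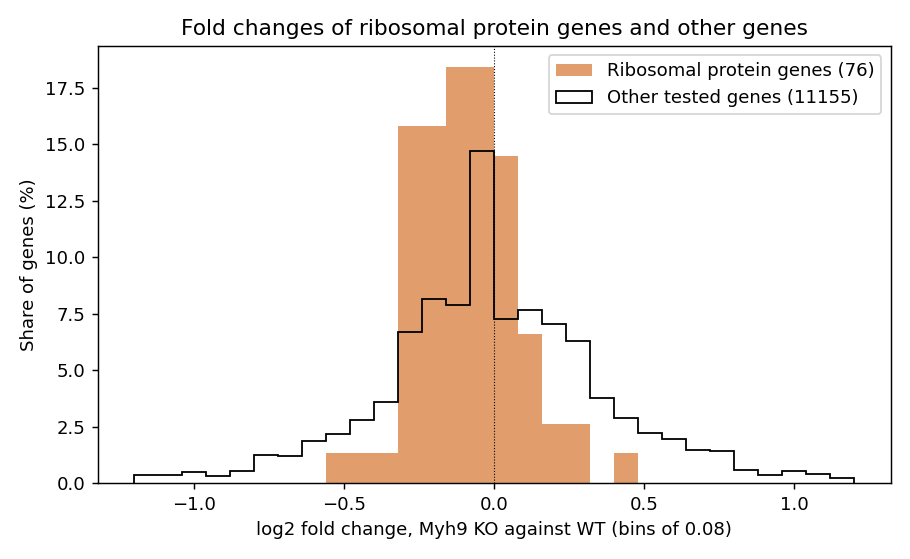
Histogram of the log2 fold change, Myh9 KO over WT, for the 76 ribosomal protein genes (filled) and the other 11155 tested genes (line), as a share of genes in percent; 388 other genes lie outside the plotted range. The ribosomal protein genes form a narrow peak left of 0, with a median of -0.11, and the other genes spread wider on both sides.

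Summed over the 76 genes, the values came to 217011 and 212668 in the Myh9 KO libraries and 224810 and 219681 in the WT libraries. That was 21.9% and 21.4% of the total in Myh9 KO and 22.7% and 22.1% in WT, a ratio of 0.967 between the group means. The ratio ran from 0.956 with Rpl32 left out to 0.974 with Rpl13a left out. Both Myh9 KO sums lay below both WT sums, but the replicates of each group differed by more than the gap between Myh9 KO 1 and WT 2.

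Genes of both subunits were among those that rose and those that fell. Of the 46 large subunit genes 1 rose and 6 fell, with a median log2 fold change of -0.10. Of the 30 small subunit genes 2 rose and 4 fell, with a median of -0.13. Summed over the subunit, the ratio of Myh9 KO to WT was 0.977 for the large and 0.952 for the small subunit. The difference between subunits was not tested.

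**Figure D2:**
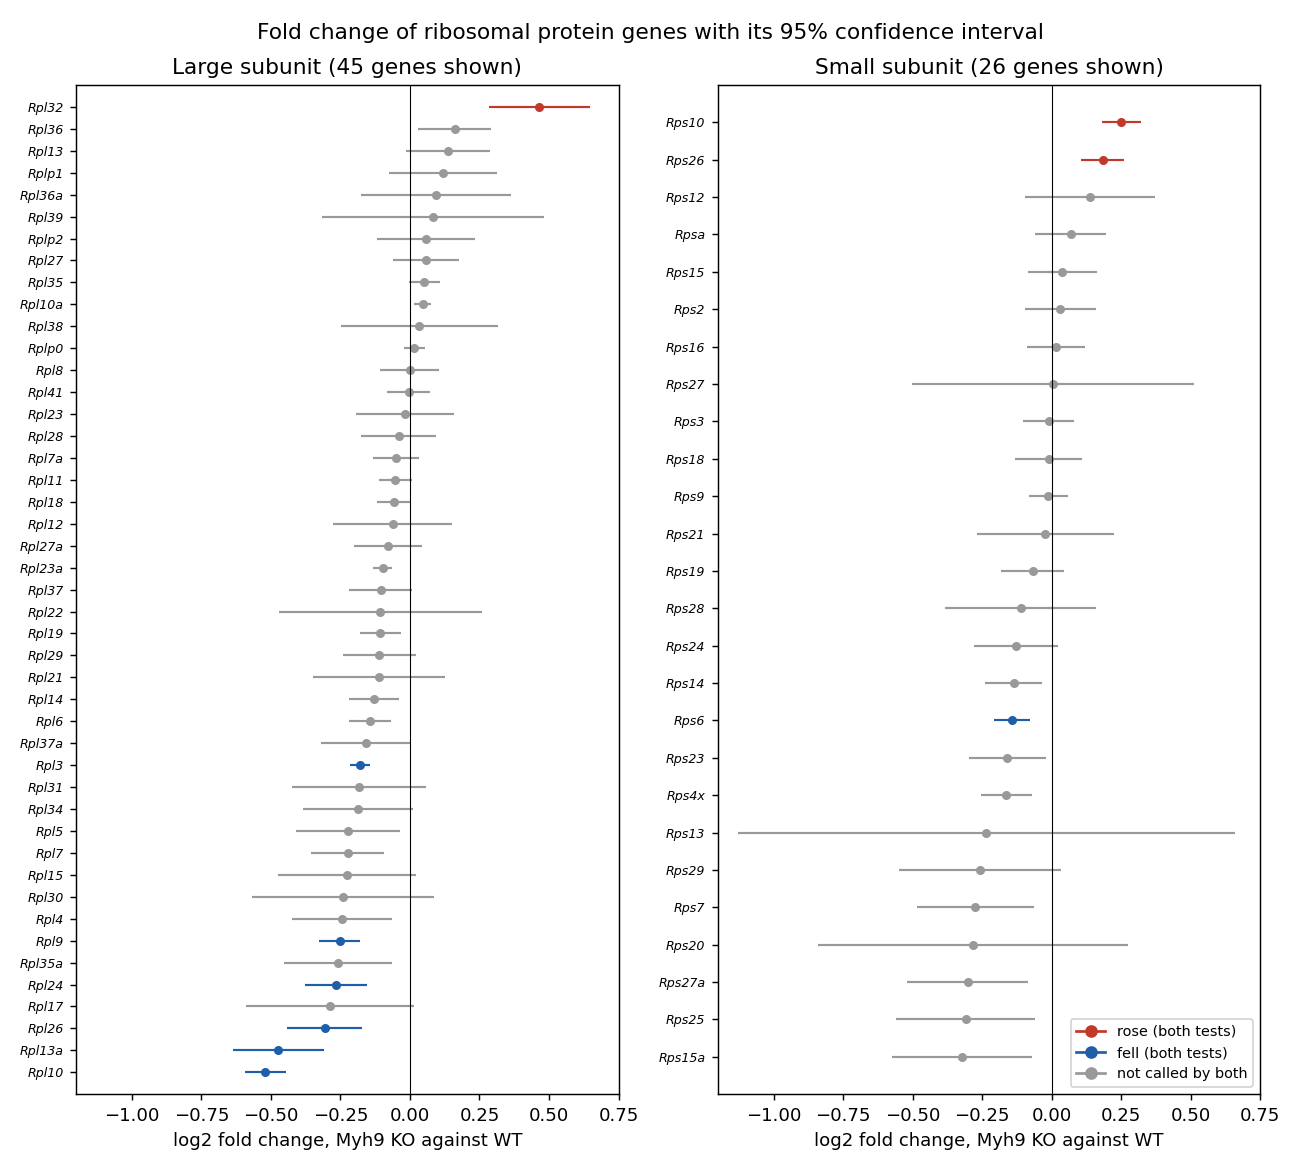
Log2 fold change, Myh9 KO over WT, with its 95% confidence interval from limma for 45 large subunit genes (left) and 26 small subunit genes (right), ordered by size. Points left of 0 outnumber those right of it in both panels (33 of 45 and 18 of 26), and the genes called by both tests are coloured.

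Among the large subunit genes that fell, Rpl10 had the lowest fold. Its protein is added late, in the cytoplasm, beside the peptidyl transferase centre. Rpl10 (X, 74270812 to 74273135) had values of 696 and 718 in Myh9 KO and 1015 and 1014 in WT (log2 fold change -0.52, SE 0.02, limma adjusted p = 0.00817). Both Myh9 KO values lay far below the WT values, with a fold of 0.697 and a 95% interval from 0.663 to 0.733. A processed copy of this gene is given further below.

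Rpl13a codes for a surface protein of the large subunit that in human cells also acts off the ribosome in a translation silencing complex. It had values of 4647 and 4503 in Myh9 KO and 6146 and 6568 in WT (log2 fold change -0.47, SE 0.05, limma adjusted p = 0.0334). Its groups were far apart, although the WT libraries differed from each other more than the Myh9 KO libraries did. The gene lies on chromosome 7 (45125558 to 45128761).

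The other large subunit genes that fell did so by less. Rpl26, whose protein lies near the exit of the peptide tunnel, had values of 1503 and 1418 in Myh9 KO and 1819 and 1791 in WT (log2 fold change -0.31, SE 0.04, limma adjusted p = 0.0475). Rpl24, which forms a bridge between the subunits, had 2213 and 2106 in Myh9 KO and 2592 and 2596 in WT (-0.26, SE 0.03, limma adjusted p = 0.0448). In both genes the WT libraries were nearly equal and both Myh9 KO libraries lay below them. Rpl9 had 1802 and 1800 in Myh9 KO and 2112 and 2181 in WT (log2 fold change -0.25, SE 0.02, limma adjusted p = 0.0266). Rpl3, which reaches toward the peptidyl transferase centre, had 1235 and 1234 in Myh9 KO and 1390 and 1407 in WT (-0.18, SE 0.01, limma adjusted p = 0.0156). For Rpl9 and Rpl3 the Myh9 KO libraries were the nearly equal pair, and again the groups did not overlap.

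Among the small subunit genes that fell was Rps6, whose protein is the classic substrate of the S6 kinases downstream of mTORC1. It had values of 1803 and 1777 in Myh9 KO and 2001 and 1955 in WT (log2 fold change -0.14, SE 0.02, limma adjusted p = 0.0498). Rps6 lay just inside the threshold, and its groups were separated by a wider gap than either pair of replicates. Of the 50-base words of Rps6, 43.8% also occur in other genes.

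The largest rise was that of Rpl32, a large subunit gene on chromosome 6 (115805505 to 115808747). It had values of 7865 and 7377 in Myh9 KO and 5661 and 5377 in WT (log2 fold change 0.47, SE 0.05, limma adjusted p = 0.0405). Rpl32 stood well above WT in both Myh9 KO libraries. It shared this with its chromosome: the other 554 tested genes of chromosome 6 had a median log2 fold change of 0.45, and 168 of them rose while 14 fell. What part the chromosome has in the value of Rpl32 was not tested.

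Rps10, whose protein sits where mRNA enters and is modified when ribosomes collide, had values of 5778 and 5899 in Myh9 KO and 4857 and 4963 in WT (log2 fold change 0.25, SE 0.02, limma adjusted p = 0.0251). Rps26, whose protein contacts mRNA at the exit channel, had 3448 and 3444 in Myh9 KO and 3087 and 2985 in WT (log2 fold change 0.18, SE 0.02, limma adjusted p = 0.0449). Both lie outside chromosomes 6 and 8, and both had groups that were wider apart than their replicates. Variants of RPS10 and RPS26 in humans cause Diamond-Blackfan anaemia, a failure of red cell production, as do those of several genes given below.

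**Figure D3:**
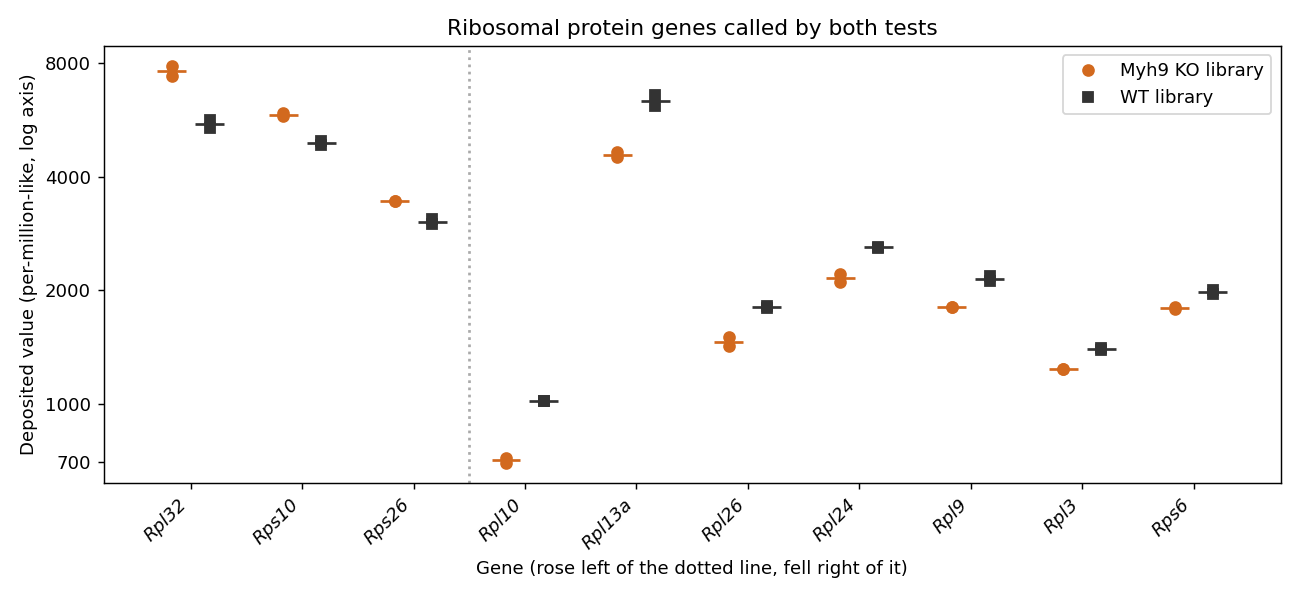
Deposited value of each library (points, log axis) and group mean (line) for 10 of the 13 ribosomal protein genes called by both tests, Myh9 KO left of WT for each gene. In each of the 10 the Myh9 KO and WT libraries do not overlap, which their selection by the tests favours. Rpl10 and Rpl13a show the widest gaps among those that fell and Rpl32 among those that rose.

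RefSeq promoter windows on mm10 were at hand for 56 of the 76 genes, 66 windows in all, and for 8 of the 13 called genes. They were searched for letters known from ribosomal protein promoters, from 250 bases before to 50 after the start. The Ets core CCGGAAG, on either strand, was found in 36.4% of the 66 windows and in 8.86% of the 32851 windows of all genes. The cores of YY1, written AAGATGG and GCCATNTT, were found in 16.7% and 22.7%, against 6.34% and 6.05%, and the Sp1 box GGGCGG in 60.6%, against 35.7%. The TATA box TATAAA was less frequent than among all genes, at 9.09% against 13.6%. A pyrimidine run on the sense strand, a C followed by at least 4 more C or T and beginning within 10 bases of the start, stood in 54.5% of the windows, against 29.7% of all. Such a run is what a TOP motif looks like in DNA, and its place depends on the exact start that RefSeq gives. A match is a description of these letters and not of binding.

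Between 60 bases before and 20 after the start, the windows of Rpl10, Rpl24 and Rpl9, which fell, held no such letters. They are not shown. The other windows of called genes, from genes that fell and genes that rose, held such letters and are shown. Each is written 5′ to 3′, with the start after 60 bases, and the capitals mark the matched letters.
Rpl13a: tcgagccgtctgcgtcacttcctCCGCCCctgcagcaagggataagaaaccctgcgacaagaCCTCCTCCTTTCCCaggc
Rpl26: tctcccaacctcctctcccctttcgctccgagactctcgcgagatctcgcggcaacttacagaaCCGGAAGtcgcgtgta
Rps6: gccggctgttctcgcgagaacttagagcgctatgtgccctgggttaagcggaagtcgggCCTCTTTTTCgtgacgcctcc
Rps10: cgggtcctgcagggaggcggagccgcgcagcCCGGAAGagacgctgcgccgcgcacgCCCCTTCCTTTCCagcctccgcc
Rps26: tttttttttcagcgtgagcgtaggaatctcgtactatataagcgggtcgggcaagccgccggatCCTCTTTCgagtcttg
The window of Rpl13a (chr7:45128726-45128805 on the minus strand) holds an Sp1 box read on the other strand and a long pyrimidine run. That of Rpl26 (chr11:68901506-68901585 on the plus strand) holds an Ets core past the start. Rps6 (chr4:86857348-86857427 on the minus strand) and Rps26 (chr10:128626487-128626566 on the minus strand) each show a pyrimidine run, although Rps6 fell and Rps26 rose. Rps10 (chr17:27635225-27635304 on the minus strand), which rose, holds both an Ets core and a pyrimidine run. With so few windows in each direction, no letters were compared between genes that rose and genes that fell.

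The proteins of the stalk, Rplp0, Rplp1 and Rplp2, recruit the elongation factors and were not called. Rplp0, a common reference gene, had values of 4729 and 4780 in Myh9 KO and 4722 and 4683 in WT (log2 fold change 0.02, SE 0.01, and -0.08 with the GC and length trend removed). Rplp1 had 9325 and 9473 in Myh9 KO and 9039 and 8294 in WT, and Rplp2 had 1832 and 1959 in Myh9 KO and 1857 and 1780 in WT. All 3 thus had a mean above that of WT, with overlap between the groups in Rplp2. Rpsa, known also as the laminin receptor precursor, had 3342 and 3298 in Myh9 KO and 3254 and 3079 in WT.

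Rpl5 and Rpl11 form, with the smallest rRNA of the large subunit, the particle that binds MDM2 when ribosome assembly fails. Rpl11 had values of 1741 and 1703 in Myh9 KO and 1796 and 1776 in WT (log2 fold change -0.05, SE 0.02, limma adjusted p = 0.175). Rpl5 was listed at only 27 and 25 in Myh9 KO and 30 and 31 in WT, and most of its family's signal stands in a copy described below. Neither gene was called by either test.

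Several more genes known from Diamond-Blackfan anaemia in humans were lower with random decimals only. Rps7 had values of 1319 and 1216 in Myh9 KO and 1495 and 1570 in WT, and Rpl35a had 2432 and 2252 in Myh9 KO and 2861 and 2743 in WT. Rps29 had 3871 and 3453 in Myh9 KO and 4521 and 4228 in WT. In each of these genes both Myh9 KO values lay below both WT values, with log2 fold changes between -0.26 and -0.27, and in each Myh9 KO 2 was the lowest library. Rps19, the gene most often affected in that disease, had 1979 and 1938 in Myh9 KO and 2102 and 2007 in WT and was called by neither test, like Rps24 (4043 and 3780 in Myh9 KO, 4259 and 4297 in WT). Rps14, the gene tied to the 5q deletion in human bone marrow, had 4120 and 4028 in Myh9 KO and 4567 and 4390 in WT and was lower with random decimals only.

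Another 3 small subunit genes were lower with random decimals only. Rps25, needed for several viral internal ribosome entry sites, had values of 2978 and 2759 in Myh9 KO and 3703 and 3408 in WT (log2 fold change -0.31, SE 0.07, limma adjusted p = 0.111, 0.0043 with random decimals). Rps27a, made as a fusion with ubiquitin, had 1660 and 1508 in Myh9 KO and 1972 and 1932 in WT (log2 fold change -0.30, SE 0.06, limma adjusted p = 0.0968, 0.00384 with random decimals). Rps15a had 924 and 825 in Myh9 KO and 1088 and 1096 in WT. In all 3 the groups did not overlap, and Myh9 KO 2 was the lowest library. Rpl4, which lines the peptide tunnel, had 1035 and 1001 in Myh9 KO and 1162 and 1251 in WT and was likewise lower with random decimals only.

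In all, 20 genes were lower with random decimals only, with log2 fold changes from -0.32 to -0.13, and the groups overlapped in 0 of them. Besides those named, they included Rpl6, Rpl7, Rpl14, Rpl15, Rpl17, Rpl30, Rpl31, Rpl34, Rpl37a, Rps4x and Rps23. Another 3 were higher with random decimals only, Rpl13 and Rpl36 (3536 and 3733 in Myh9 KO, 3218 and 3285 in WT) among them. Rpl23a was lower by the designed test only, with 5888 and 5829 in Myh9 KO and 6283 and 6259 in WT.

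The other 39 genes were called by neither test, and 20 of them overlapped between the groups. They included some with nearly equal groups. Rpl41, which codes for the shortest of these proteins, had values of 9876 and 9747 in Myh9 KO and 9993 and 9689 in WT, and Rps3 had 3639 and 3759 in Myh9 KO and 3684 and 3770 in WT. Rpl38, known in mice for its role in the translation of Hox mRNAs, had 3122 and 2814 in Myh9 KO and 3005 and 2790 in WT. In these genes the groups overlapped, and the 95% intervals of the log2 fold change ran from -0.08 to 0.07 for Rpl41 and from -0.10 to 0.08 for Rps3, with both intervals spanning 0. Others had replicates that lay far apart. Rps13 had 690 and 485 in Myh9 KO and 754 and 615 in WT, and Rps27 had 4087 and 3542 in Myh9 KO and 4151 and 3463 in WT.

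Of the 4 genes on chromosome X, Rpl10 fell and the other 3 were not called by both tests. Rps4x had values of 1736 and 1676 in Myh9 KO and 1893 and 1928 in WT, lower with random decimals only and slightly above 0 (log2 fold change 0.02) once the GC and length trend described below was removed. Rpl39, whose protein lines the peptide tunnel, had 1103 and 929 in Myh9 KO and 984 and 928 in WT, and Rpl36a had 2012 and 1797 in Myh9 KO and 1823 and 1741 in WT. The other 342 tested genes of the chromosome had a median log2 fold change of -0.03. On chromosome 8, Rpl13 had 5888 and 6300 in Myh9 KO and 5535 and 5552 in WT. It was higher with random decimals only, and the other 644 genes of chromosome 8 had a median of 0.21. Without the 3 genes on chromosomes 6 and 8, 2 of 73 rose and 10 fell, and the median log2 fold change was -0.11. The median was thus as far below 0 without these chromosomes as with them.

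The fold changes followed the GC content of the transcripts, which ran from 43.5% to 60.8% over the 76 genes. Across the 76 genes Spearman's rho between GC content and log2 fold change was 0.517, and across the 11220 tested genes with a GC value it was 0.292; genes of a library are not independent, and these are descriptions. The difference between replicates (Myh9 KO 2 over Myh9 KO 1) followed GC as well, with a rho of 0.562 over the 76 genes and 0.445 over all, whereas for WT 2 over WT 1 it was -0.02 and -0.05. In the 21 ribosomal protein genes of 46% to 50% GC the median log2 fold change was -0.23, against -0.06 in the 2469 other genes of that range. In the 31 genes of 50% to 54% GC it was -0.10, against 0 in 2569 others, and in the 16 of 54% to 58% GC it was 0.01, against 0.09 in 2489 others. In all of these ranges the ribosomal protein genes stood below other genes of like GC content.

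With the trend on GC content and transcript length removed from the whole table, the median of the 76 genes was -0.04, against 0.02 for all genes with a value. Their direction was then above 0 in 28 and below 0 in 48, against 52.7% above and 47.3% below of all genes. By both tests 6 were higher and 15 lower (7.89% and 19.7%), where 11.2% were higher and 11.1% lower of all genes with a value. Of the 13 called genes 10 were still called, while Rpl24 and Rpl9 were among those that were not. Rpl13a (-0.50), Rpl10 (-0.37) and Rpl32 (0.55) were the genes farthest from 0 in this fit among the called ones. What part the GC trend has in the lower values of the other genes was not tested.

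**Figure D4:**
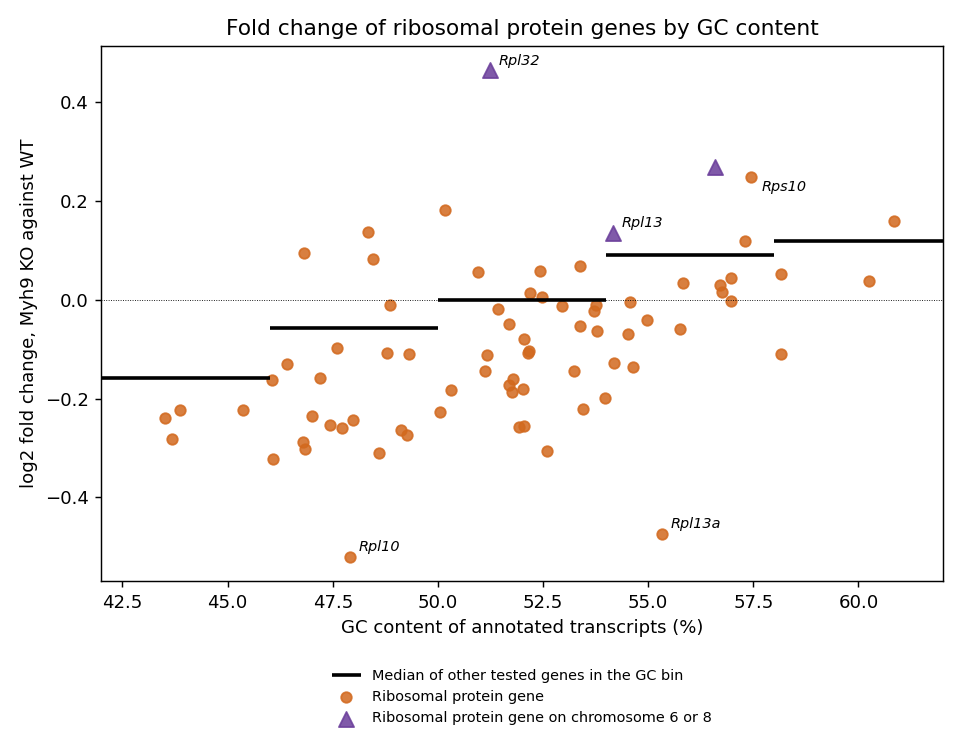
Log2 fold change, Myh9 KO over WT, of the 76 ribosomal protein genes against the GC content of their annotated transcripts in percent; triangles are the 3 genes on chromosomes 6 and 8, and horizontal lines give the median of other tested genes in each GC range. The points rise from left to right (rho 0.517) and mostly lie below the lines, with Rpl10 and Rpl13a far below and Rpl32 far above.

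The rows of ribosomal protein genes cannot be read apart from their copies. Of the 76 genes, 72 had at least 1 other row that shared 20% or more of its 50-base words with the gene, 418 rows in all, of which 85 had a mean value of at least 1. Summed over these copies, the values came to 39048 and 38841 in Myh9 KO and 39228 and 39337 in WT. For 9 genes the copies held 50% or more of the value of gene and copies together, and for 23 they held 10% or more. How reads were shared between gene and copy is not stated, so single rows of these families are uncertain. A family is given here as the sum of gene and copies on the deposited scale; if that scale is per length, short copies weigh more in it than their reads would.

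For Rps12 the share in copies was 98.2%: the gene row stood at 102 and 95 in Myh9 KO and 93 and 86 in WT, and the family at 5167 and 5228 in Myh9 KO and 5298 and 5314 in WT. The gene row of Rps12 was thus higher in Myh9 KO and its family lower, and neither was called. For Rpl5 the copy Gm15500 had values of 784 and 714 in Myh9 KO and 835 and 856 in WT, which brought the family to 811 and 739 in Myh9 KO and 865 and 887 in WT (log2 fold change -0.18, SE 0.06, limma adjusted p = 0.184). Its family was lower with random decimals only (adjusted p = 0.0347).

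Rpl10 kept its call with a smaller change. Its copy Rpl10-ps3 had values of 2946 and 2828 in Myh9 KO and 3112 and 3069 in WT, and the family 3644 and 3547 in Myh9 KO and 4129 and 4086 in WT (log2 fold change -0.19, SE 0.02, limma adjusted p = 0.0344). Alone, the Rpl10 row had a log2 fold change of -0.52, farther from 0 than that of the family. Rps13, whose own replicates disagreed, had a family of 3030 and 3036 in Myh9 KO and 3633 and 3749 in WT, which fell (log2 fold change -0.28, SE 0.02, limma adjusted p = 0.0219). Its replicates came together once Rps13-ps2 (315 and 505 in Myh9 KO, 256 and 520 in WT) and the other copies were added. The copy Rps13-ps1 had 2023 and 2046 in Myh9 KO and 2622 and 2612 in WT. The rows of Rps13 and Rps13-ps2 overlapped between the groups, so the fall of the family rests mainly on Rps13-ps1. The family of Rpl15 fell too, with 3006 and 3007 in Myh9 KO and 3507 and 3392 in WT (log2 fold change -0.20, SE 0.02, limma adjusted p = 0.0398).

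Rpl31 went the other way when summed. Its row had values of 1351 and 1234 in Myh9 KO and 1511 and 1421 in WT, while Rpl31-ps8 had 470 and 512 in Myh9 KO and 255 and 311 in WT. The family stood at 1833 and 1751 in Myh9 KO and 1770 and 1733 in WT, a log2 fold change of 0.03 against -0.18 for the row. Rpl28 (-0.04 for the row, 0.08 for the family), Rpl12 (-0.06 and 0.01) and Rps27 (0.01 and -0.01) also stood on opposite sides of 0, and neither row nor family of these was called by both tests. Over all families, 3 rose and 11 fell by both tests (3.95% and 14.5%), where 5.19% rose and 5.88% fell of all genes. The 3 that rose and 9 of the 11 that fell were also called as single rows; Rps13 and Rpl15 were gained and Rps6 was lost.

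**Figure D5:**
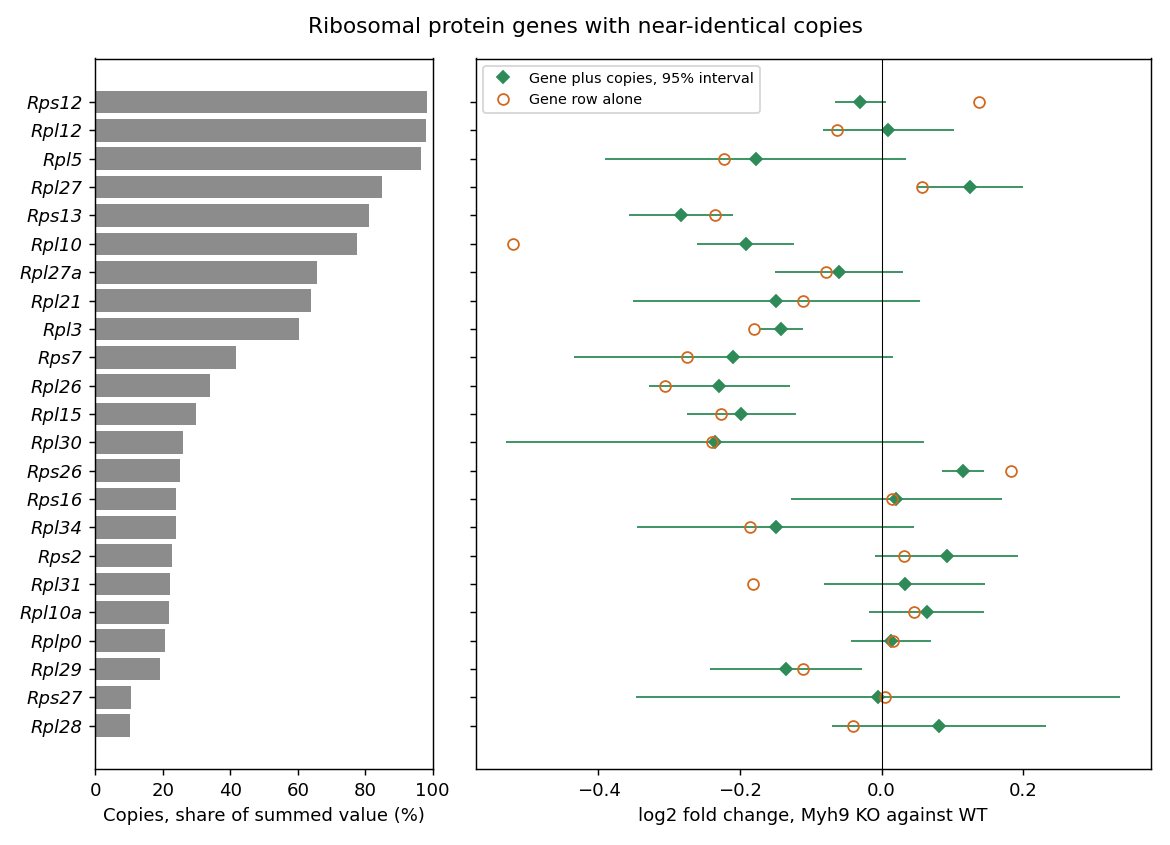
For the 23 ribosomal protein genes with 10% or more of their summed value in near-identical copies, the left panel gives that share in percent and the right panel the log2 fold change, Myh9 KO over WT, of the family with its 95% interval (diamonds) and of the gene row alone (open circles). The circle and the diamond lie far apart for Rpl10 (-0.52 and -0.19) and on opposite sides of 0 for Rpl31, Rps12, Rpl28, Rpl12 and, narrowly, Rps27.

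Ribosomal protein genes that the naming rule leaves out moved more widely. Of 13 tested, 1 rose and 3 fell. Rpl39l and Rpl10l, autosomal paralogs of the X-linked Rpl39 and Rpl10 that are known from male germ cells, had the largest changes. Rpl39l had values of 30 and 29 in Myh9 KO and 235 and 266 in WT (log2 fold change -3.04, SE 0.08, limma adjusted p = 0.00406). Rpl10l had 51 and 49 in Myh9 KO and 148 and 162 in WT (log2 fold change -1.61, SE 0.06, limma adjusted p = 0.00756). Both fell by far more than any of the 76 genes did, while Rpl39 itself was not called. Rps4l, on chromosome 6, rose to 1877 and 2022 in Myh9 KO, against 1259 and 1238 in WT (log2 fold change 0.64, SE 0.05, limma adjusted p = 0.0228). Rack1, which codes for a scaffold protein on the small subunit, fell to 3344 and 3395 in Myh9 KO, against 3752 and 3697 in WT (-0.14, SE 0.02, limma adjusted p = 0.0362). Rack1 lost its call with the GC and length trend removed (log2 fold change -0.095, limma adjusted p = 0.135). It was also not called with median centring (limma adjusted p = 0.41).

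The other 9 were not called by both tests. Fau, which codes for a ribosomal protein fused to a ubiquitin-like protein, had 1100 and 1146 in Myh9 KO and 1170 and 1066 in WT, with overlap between the groups. Rps3a1 had values of 924 and 882 in Myh9 KO and 997 and 1010 in WT, Rps27l had 970 and 910 in Myh9 KO and 1105 and 1076 in WT, and Rpl36al had 514 and 461 in Myh9 KO and 639 and 603 in WT. Rpl22l1, the paralog of Rpl22, had 145 and 121 in Myh9 KO and 179 and 171 in WT, and Rpl22 had 1451 and 1239 in Myh9 KO and 1480 and 1409 in WT. These 4 outside the rule, from Rps3a1 to Rpl22l1, did not overlap between groups and were lower with random decimals only, although Rps27l stood at a log2 fold change of 0.17 with the GC and length trend removed. Rpl7l1 (236 and 242 in Myh9 KO, 215 and 214 in WT) was higher by the designed test only, Rps27rt (433 and 454 in Myh9 KO, 321 and 606 in WT) had WT libraries that disagreed, and Rpl3l was barely detected, with 4 and 3 in Myh9 KO and 2 and 2 in WT (log2 fold change 0.58, SE 0.14, limma adjusted p = 0.121); neither test called it.

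Other TOP mRNAs were mostly on the lower side as well. Of 26 tested TOP mRNAs beyond the 76 genes, 0 rose and 5 fell by both tests, 1 was higher and 14 lower with random decimals, and 15 had an unadjusted limma p under 0.05. Their median log2 fold change was -0.17. Rack1, Rps3a1 and Fau, given above, are also on this list. Btf3, a subunit of the nascent polypeptide-associated complex, had values of 729 and 705 in Myh9 KO and 929 and 910 in WT (log2 fold change -0.36, SE 0.03, limma adjusted p = 0.0208). Eif3l, a subunit of initiation factor eIF3, had 375 and 365 in Myh9 KO and 436 and 445 in WT, and Cct5, a chaperonin subunit, had 406 and 391 in Myh9 KO and 468 and 464 in WT; both fell, as did Rack1. The background among all genes was 5.14% that rose and 5.79% that fell by both tests. With random decimals it was 11.1% higher and 12.1% lower. The share of all genes at an unadjusted limma p under 0.05 is not given. The unadjusted counts of this list and of those below thus have no background and show no excess by themselves. No test of the list was run.

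Of 34 other translation factors 0 rose and 2 fell, with 3 higher and 8 lower with random decimals, 9 at an unadjusted limma p under 0.05 and a median log2 fold change of -0.11. The 2 were Eif4a1, the helicase of cap-dependent initiation (2282 and 2228 in Myh9 KO, 2666 and 2643 in WT), and Eif2b5, a subunit of the exchange factor of eIF2 (236 and 240 in Myh9 KO, 300 and 306 in WT). Of 80 ribosome assembly factors 4 rose and 2 fell, with 9 higher and 7 lower with random decimals, 25 at an unadjusted limma p under 0.05 and a median log2 fold change of 0. The nucleolar rRNA methyltransferase Nop2 rose to 330 and 353 in Myh9 KO, against 196 and 206 in WT, and Emg1, also an rRNA methyltransferase, to 574 and 575 in Myh9 KO, against 411 and 407 in WT. Both lie on chromosome 6. Rcl1 (116 and 118 in Myh9 KO, 97 and 100 in WT) rose as well, and Pno1, needed for small subunit maturation, fell (44 and 43 in Myh9 KO, 53 and 54 in WT). Pno1 lost its call with the GC and length trend removed (log2 fold change -0.03, limma adjusted p = 0.777). It was also not called with median centring (limma adjusted p = 0.0585).

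Of 20 genes of RNA polymerase I and its factors, which make the rRNA precursor, 1 rose and 0 fell, while random decimals called 2 each way and 6 had an unadjusted limma p under 0.05. The one that rose was Polr1a, the largest subunit, on chromosome 6, with 78 and 77 in Myh9 KO and 44 and 47 in WT. Of 17 genes that control TOP mRNAs or mTORC1, 0 were called by limma, with or without random decimals, and 3 had an unadjusted limma p under 0.05. Larp1, which binds the TOP motif, had 52 and 52 in Myh9 KO and 49 and 50 in WT, and Rheb, the GTPase that activates mTORC1, had 49 and 45 in Myh9 KO and 54 and 57 in WT. Of 10 growth regulators of ribosome genes 1 rose and 1 fell, with 2 higher and 2 lower with random decimals, 4 at an unadjusted limma p under 0.05 and a median log2 fold change of -0.05. Mycn fell to 58 and 55 in Myh9 KO, against 88 and 90 in WT (log2 fold change -0.65, SE 0.04, limma adjusted p = 0.0151). Nrf1, on chromosome 6, rose to 95 and 93 in Myh9 KO, against 64 and 70 in WT. Myc, which belongs to the same family as Mycn, had 36 and 41 in Myh9 KO and 26 and 26 in WT (log2 fold change 0.55, SE 0.08, limma adjusted p = 0.0602, 0.00481 with random decimals), higher with random decimals only.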

How the data were processed

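RNA-seq of OG2ES mouse ES cells (2 Myh9 KO and 2 WT libraries) was used as deposited. The authors' values were treated as a score: whole numbers with nearly equal totals, whose scaling and rounding are not given in the sources used here, so depth, counting error and intervals from counts cannot be given. Per the labels' protocols, libraries were made from oligo-dT enriched mRNA with random hexamer priming and no step that marks strand, so reads of sense and antisense overlaps cannot be told apart. Bowtie2 2.2.5, RSEM 1.3.0 and bcl2fastq, and the builds hg38 and mm10, appear with no stated role, per the submitters' processing notes.

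Genes averaging 1 or more were fitted on log2(value + 1) with limma 3.58.1 (limma-trend) in R 4.3.3, Myh9 KO against WT with no block, and p-values were adjusted by Benjamini-Hochberg over all 11231 genes. The random decimals fit gave each gene its median adjusted p over 25 draws. Both were tested on simulated whole-number data. There the designed test by itself called more unchanged genes than changed ones, and the random decimals fit called far more changed than unchanged genes. Both together called 52 of 200 changed genes and no unchanged gene. The simulated noise was independent between genes and had no trend on GC content, unlike these data, so these error rates need not hold here. Alternatives were another pseudocount, no filter or a filter of 5, median centring, rescaling without the ribosomal protein genes, no trend, removal of a trend on GC content and length (spline of 4 df), each library left out, and a replicate block. GC content, length and shared 50-base words came from GENCODE vM21 transcripts; the rule for copies (20% of words shared, not overlapping the gene) and its fits were chosen after seeing the data. Coordinates are on mm10.

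The ribosomal protein genes, the other gene lists and the markers were chosen with earlier results of these data known. Some genes that the rule names are not reported here. Named genes were Myh9, the 10 largest changes each way among genes called by both tests, genes named for a known role, all on chromosomes 6, 8 and X, all outside the naming rule, and up to 4 called genes (2 where none was called) of each other list. Other genes named, such as Myc, Rps15a, Rps13, Rps12, Rpl15, Rpl31 and the copies, were chosen after their values were seen.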

Additional observations from a re-analysis of the deposited data

How the results depend on the processing

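All 13 genes called by both tests kept their sign under every alternative run. A pseudocount of 0.5, no filter, a filter of 5, rescaling without the ribosomal protein genes and no trend left the counts within 1.5 times. Median centring, a shift of 0.0466, called 1 higher and 2 lower of the 76 genes. Their median log2 fold change was then -0.0607, against 0.0466 for all tested genes. Random decimals called 6 and 30 of the 76, and 1245 and 1357 of all genes. With the GC and length trend removed 6 of the 76 and 1317 of all genes were higher and the median was -0.041, and with random decimals added 9 and 20 of the 76, 1390 and 1360 of all genes, and a median of -0.045. Copies summed with random decimals gave 7 and 33 of the 76 and 1281 and 1381 of all genes.

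With each library left out, by both fits, 0 to 7 of the 76 were higher and 1 to 38 lower (27 with random decimals without Myh9 KO 2), 599 to 1287 of all genes were higher and 648 to 1531 lower, and the median ran from -0.123 to -0.0705; the lone library of a group is then assumed to vary like the others. The labels give both groups replicates 1 and 2 and do not say whether libraries of the same number belong together. The replicate differences of the groups correlated at 0.516 over the 76 genes and 0.0407 over all tested. Whether the 76 genes carry a replicate effect shared by the groups was not tested, and the main fit has no block for it. With the replicate block, 0 and 0 of the 76 and 10 and 44 of all genes were called by limma, with 5 higher and 29 lower of the 76 at an unadjusted p under 0.05. The share of all genes at that unadjusted p is not given, so no excess can be read from the unadjusted counts. The alternatives that sum copies, and those that add random decimals to another change, were chosen after seeing the data.

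Of 72 named genes under 14 settings, 35 of the values changed sign, in 16 genes, none called by both tests. With the GC and length trend removed these were Rps24 0.0087, Rpl22 0.0063, Rps3 0.0654, Rps4x 0.0181, Rps27l 0.166, Larp1 -0.0102, Rpl10a -0.0453, Fau -0.0613, Rps2 -0.0617, Rplp0 -0.0788 and Rpl23 0.0686. With median centring they were Rps3 0.0356, Rpl23 0.0285 and Rpl41 0.0424, with rescaling Fau -0.0064, Rps27rt -0.0067 and Rps27 -0.0091, and with copies summed Rps27 -0.0054. With a library left out, the lowest and highest values were -0.221 and 0.0069 for Rpl22, -0.0344 and 0.0124 for Rps3, -0.0594 and 0.0748 for Fau, -0.0103 and 0.0722 for Rps2, -0.45 and 0.465 for Rps27rt, -0.0412 and 0.109 for Rpl38, -0.0673 and 0.0311 for Rpl23, -0.0407 and 0.207 for Rpl39, -0.126 and 0.136 for Rps27, and -0.0265 and 0.0181 for Rpl41. The causes were not tested. The depth is unknown and sets a limit on small changes that cannot be given.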
